A study of Mus musculus with 24 samples.

Results

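Galectins are small lectins that bind beta-galactosides, and 10 genes of this family and its relatives were followed here in mouse retinas: Lgals1, Lgals2, Lgals3, Lgals4, Lgals7, Lgals8, Lgals9 and Lgals12, which encode the galectins of the same numbers, and the galectin-related genes Lgalsl and Grifin. They were found through the transcript identifier in the probe set name, and each of the 10 had 1 probe set, so that 10 of the 1246 probe sets and 10 of the 909 named genes were used. The mutant retinas came from RP mutant mice labelled P347S+, a transgenic line with a rhodopsin mutation in which rod photoreceptors die slowly, aged 1, 2, 3 or 4 months, and they were set against retinas from normal mice labelled P347S- of the same ages. There were 3 arrays for each genotype at each age, 24 in total, and RNA of whole retina was hybridised to an array focused on glycan-related genes. The labels name no promoter, founder line or strain for the transgene, give the sex as unknown and leave unstated if arrays of 1 group stand for different mice, so each p measures only the spread between these samples. The study asked about a role of glycans and glycan-binding proteins in the degeneration, and its design text names galectin-1 and galectin-3 as reasons.

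Galectins have no signal peptide, leave cells by an unconventional route and crosslink glycoproteins that carry N-acetyllactosamine. The family is grouped by its carbohydrate recognition domains: galectin-1, galectin-2 and galectin-7 have a single domain and can form dimers, galectin-3 joins a single domain to a long flexible tail, and galectin-4, galectin-8, galectin-9 and galectin-12 carry a pair of different domains on one chain. Lgalsl encodes a galectin-related protein, and GRIFIN is a galectin-related protein named for the space between lens fibre cells; neither is known as a classical sugar-binding galectin in mammals. In nervous tissue galectin-1 and galectin-3 are known from glia, and galectin-9 is known as an interferon-induced ligand of the receptor TIM-3.

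Values are log2 RMA signals, so a difference of 1 is a factor of 2 in signal. They lay between 1.9 and 14.17 over all probe sets, and array medians lay between 5.15 and 5.34. The labelled tissue could be checked in part only, because 1 of 16 listed photoreceptor markers was on the array (Gnb1, 12.62 to 13.04 in P347S arrays and 12.64 to 13.26 in normal arrays, lower in P347S retinas by the test below with adjusted p = 0.0121). The number of arrays limits the precision, and groups of 3 cannot reach an exact permutation p below 0.1, so limma, fitted to all 1246 probe sets, decides the calls. A call means a limma p, Benjamini-Hochberg adjusted over the 1246 probe sets, under 0.05. In bulk tissue a change in the number of cells of a type and a change in RNA per cell cannot be told apart. The probe sets of Lgals1, Lgals3, Lgals4, Lgals7 and Lgals9 carry the suffix s, whose probes can read further transcripts, and the other 5 have no suffix.

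Grifin set 3 arrays apart. Its log2 signal reached 11.29 in the second P347S array of 2 months. It reached 11.33 in the second normal array of 2 months and 10.16 in the first normal array of 4 months, while the remaining 21 arrays read 5.69 to 8.77. These 3 arrays belong to both genotypes, and every test below was also run without them. Among the members Lgals1 and Lgals3 were higher in the same 3 arrays, as described further on.

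Over the 4 ages 1 of the 10 members, Lgals9, was higher in P347S retinas and none was lower, where 22.6% of all probe sets were called, 13.8% higher and 8.83% lower. Of all called probe sets 61.0% were higher, and 50.6% after a further quantile normalization. Centring by array medians gave 70.3%, and Lgals9 was called higher under both scalings. The median difference of the 10 members was -0.02, and that of the 909 named genes was -0.02 too. At 4 months Lgals9 was again the 1 member called, with 9.47% of all probe sets called higher, and at 1, 2 and 3 months no member passed in limma, where 0.321%, 3.45% and 12% of all probe sets did. At an unadjusted p under 0.05 the members that passed were Lgals9 and Lgalsl at 1 month, Lgals4 and Lgals9 at 2 months and Lgals2, Lgals9 and Lgalsl at 3 months, with 9.23%, 14.4% and 29.7% of all probe sets. Of the calls at 4 months, 12.9% of all probe sets, 73.3% were higher, and 53.5% after a further quantile normalization. At 1 month 75% of the 4 calls were higher, and 90% after centring.

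**Figure D1:**
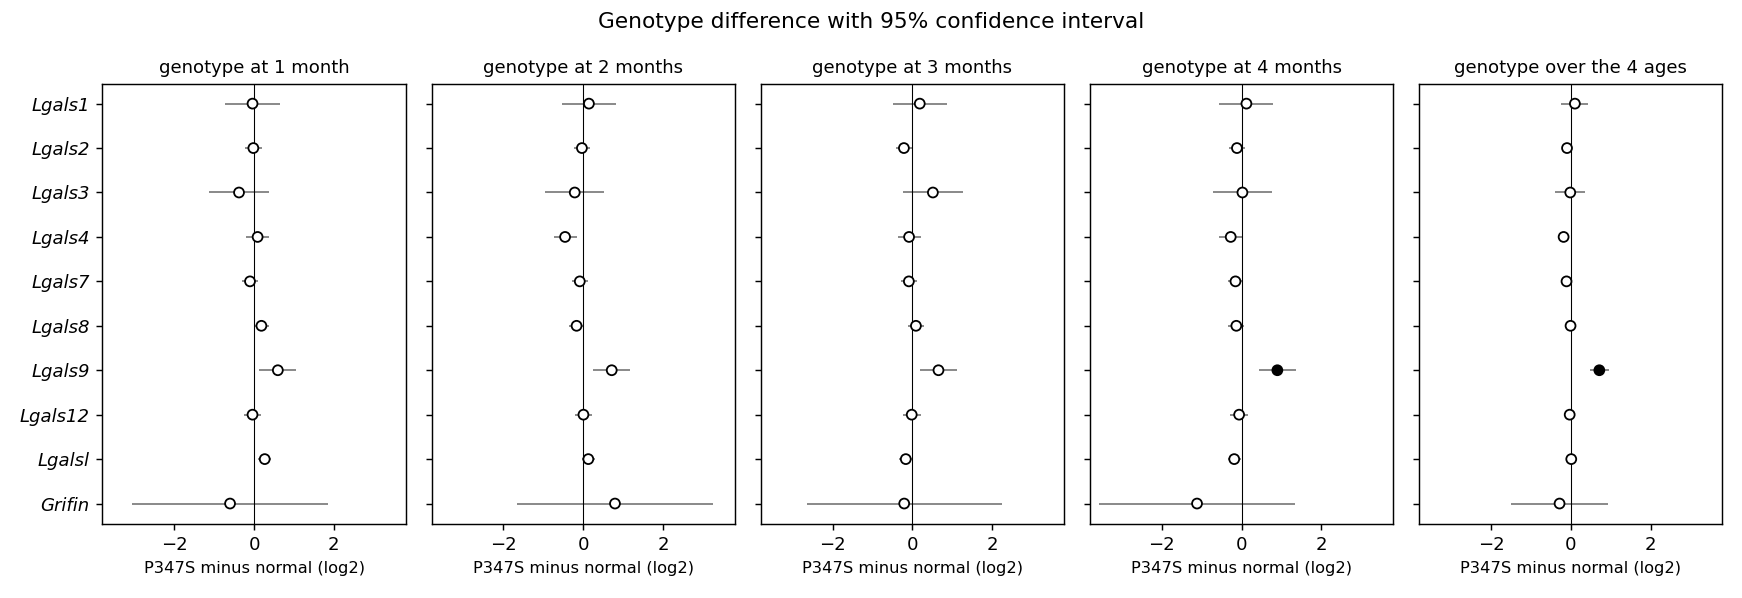
Difference in log2 RMA signal between P347S and normal retinas (x axis, P347S minus normal) for each member (y axis) at each age and over the 4 ages. Points are limma estimates from 24 arrays, lines are 95% confidence intervals, and filled points have an adjusted p under 0.05: Lgals9 at 4 months (0.90) and over the 4 ages (0.71). The Grifin intervals are widest, from -3.56 to 1.33 at 4 months.

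Lgals9 encodes galectin-9, which has a pair of recognition domains. At 1 month its log2 signal was 5.43, 5.0 and 5.41 in P347S retinas, against 4.75, 4.79 and 4.52 in normal retinas. At 2 months it was 5.41, 6.03 and 4.77 in P347S retinas and 4.87, 4.72 and 4.48 in normal retinas. P347S replicate 3 of 2 months thus lay among the normal arrays, though each P347S array lay above the normal array of its number, while replicate 2 of that group, an array with a high Grifin signal, gave the highest Lgals9 value of all. At 3 months Lgals9 was at 5.13, 5.20 and 5.66 in P347S retinas and at 4.67, 4.65 and 4.70 in normal retinas. At 4 months it was at 5.59, 5.75 and 5.16 in P347S retinas and at 4.80, 4.46 and 4.55 in normal retinas. The genotypes did not overlap at 1, 3 and 4 months, where 10.4%, 13.2% and 17.1% of all probe sets were higher in P347S retinas without overlap, and 11 of the 12 P347S arrays lay above every normal array.

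Over the 4 ages Lgals9 was 1.64-fold higher in P347S retinas (log2 difference 0.71 ± 0.11, SE, n = 24 arrays, limma adjusted p = 7.47e-05). The adjusted p lay between 3.35e-06 and 0.000234 over the 32 alternatives tried, and without the 3 arrays with high Grifin the difference was 0.66 ± 0.10 (limma adjusted p = 0.000121), where 18.0% of all probe sets were called. By age, in order from 1 month, it measured 0.60, 0.71, 0.65 and 0.90, each ± 0.22 (SE), with limma adjusted p of 0.344, 0.0781, 0.061 and 0.00917. It was therefore positive at each age, and past the threshold at 4 months alone. Without the 3 arrays with high Grifin it passed at 3 months too (0.65 ± 0.18, SE, limma adjusted p = 0.0289), where 10.9% of all probe sets were then called. The F test of a change of the difference with age gave an adjusted p of 0.912, so no change with age was shown. The 4-month call ended without P347S replicate 2 of 4 months (limma adjusted p = 0.0566, the highest of 33 alternatives, the lowest being 0.00053). The 2-month difference was 0.40 without P347S replicate 2 of that age and 1.03 without replicate 3, so it rested on which of these arrays was used. Mean signal of Lgals9 was 5.02, below the median of all probe sets (5.26), and the background level is not known, so the fold is uncertain.

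The 250 bases before the annotated start of Lgals9 are shown because it was the member that differed by genotype, with those of Lgalsl, Lgals3 and Grifin, which carry the age and array patterns below. The sequences are RefSeq's for build GRCm38.p6, 8 of the 10 members had an entry, and the windows are chr11:78984925-78985174 (minus strand) for Lgals9, chr11:20831109-20831358 (minus strand) for Lgalsl, chr14:47373610-47373859 (plus strand) for Lgals3 and chr5:140565068-140565317 (minus strand) for Grifin. The windows of Lgalsl and Grifin lie inside the span of the annotated gene, and so before an internal start. Capitals mark matches, on either strand, to 6 motifs. The motif of interferon regulatory factors was a pair of GAAA words with any 2 bases between them. The motif of STAT factors began with TTC and, after any 3 bases, ended in its reverse complement. The motif of AP-1 was TGA followed, after any 1 base, by its reverse complement. The motif of Maf factors was TGCTGA, that of a GC box GGGCGG and that of a TATA box TATAAA.
Lgals9: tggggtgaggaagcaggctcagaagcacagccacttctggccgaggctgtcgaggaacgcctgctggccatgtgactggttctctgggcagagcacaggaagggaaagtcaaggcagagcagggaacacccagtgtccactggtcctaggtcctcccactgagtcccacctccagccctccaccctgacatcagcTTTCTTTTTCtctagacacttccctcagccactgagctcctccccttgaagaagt
Lgalsl: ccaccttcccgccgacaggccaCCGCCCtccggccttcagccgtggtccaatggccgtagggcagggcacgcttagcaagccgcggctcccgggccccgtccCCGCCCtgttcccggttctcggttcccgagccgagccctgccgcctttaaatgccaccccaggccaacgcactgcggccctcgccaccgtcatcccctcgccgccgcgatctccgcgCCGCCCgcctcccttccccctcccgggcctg
Lgals3: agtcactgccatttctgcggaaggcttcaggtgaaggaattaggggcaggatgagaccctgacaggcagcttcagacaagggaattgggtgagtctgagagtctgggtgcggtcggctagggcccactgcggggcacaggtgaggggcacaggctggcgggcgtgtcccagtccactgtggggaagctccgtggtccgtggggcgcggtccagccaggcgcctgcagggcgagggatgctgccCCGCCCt
Grifin: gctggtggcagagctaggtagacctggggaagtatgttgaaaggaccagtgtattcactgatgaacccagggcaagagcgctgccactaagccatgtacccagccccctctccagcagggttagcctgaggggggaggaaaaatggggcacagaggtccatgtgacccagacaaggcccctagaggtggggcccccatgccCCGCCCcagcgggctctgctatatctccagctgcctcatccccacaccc
The capitals in Lgals9 are 1 match to the interferon regulatory factor motif, read on the other strand, a motif that 3.04% of 27025 mouse promoters of the same length hold. Those in Lgalsl are 3 matches to GGGCGG, and Lgals3 and Grifin hold 1 each, where 32.9% of promoters hold at least 1. None of the 4 windows matched the STAT, AP-1, Maf or TATA letters, which 7.18%, 6.87%, 15.8% and 13% of promoters hold. No 2 of these matches overlap, and a match is a description of letters, not of a bound site.

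Markers of microglia and macrophages and of other cells differed between the genotypes in the same arrays. Of 16 listed markers 5 were on the array, and 4 of them, the receptors Csf1r, Cx3cr1 and Adgre1 and the lectin Siglech, were called higher in P347S retinas over the 4 ages, while Mrc1, a marker of macrophages, was not called (-0.01 ± 0.06, SE, limma adjusted p = 0.891). The mean log2 signal of the 5 lay between 5.45 and 6.23 in P347S arrays and between 4.96 and 5.25 in normal arrays, without overlap. Among P347S arrays the lowest Lgals9 signal (4.77) came with the lowest mean (5.45). The highest Lgals9 signals there, 6.03, 5.75, 5.66 and 5.59, came with the highest means. These means were 5.85, 5.87, 6.23 and 5.96 in the same order of arrays, so the rank within these arrays differed. Among normal arrays the highest mean (5.25) came with the lowest Lgals9 signal (4.46), and the highest Lgals9 signal (4.87) with a mean of 4.98. Of 15 markers of reactive Muller glia and astrocytes 4 were measured (Fgf2, Cd44, Vcam1 and Icam1) and all 4 were called higher, with a mean of 5.45 to 6.52 in P347S arrays and 4.94 to 5.59 in normal arrays. The normal mean of 5.59 came from replicate 2 of 2 months, an array with high Grifin, where Cd44 read 8.69. Of 10 markers of endothelium and pericytes 5 were measured and 2, Cd34 and Mcam, were called higher, with a mean of 5.15 to 5.70 in P347S arrays and 5.14 to 5.44 in normal arrays. Beside these marker counts, 13.8% of all probe sets were called higher over the 4 ages and 8.83% lower. No marker read near 0, since signals on this scale start at 1.9. The part of these cells in the Lgals9 difference was not tested.

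**Figure D2:**
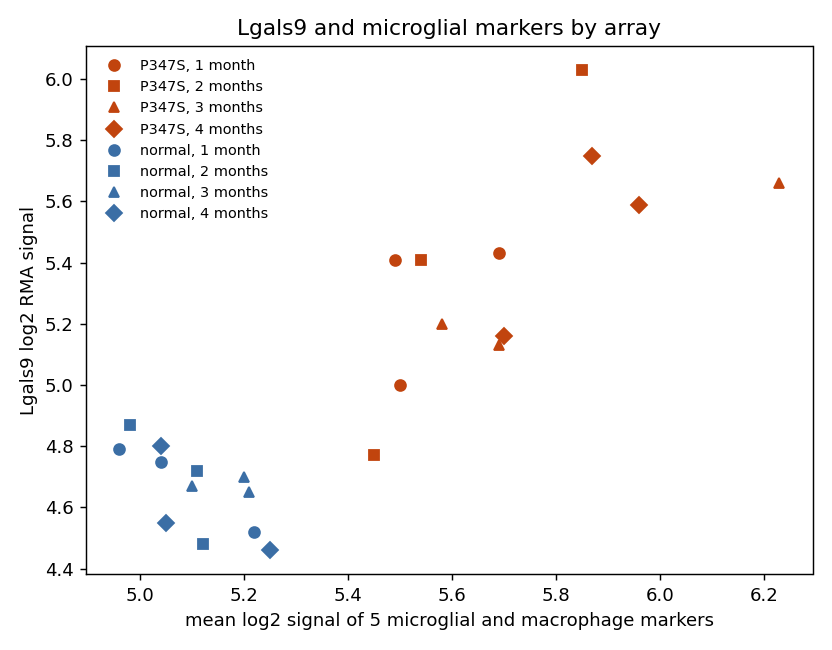
Lgals9 log2 RMA signal (y axis) against the mean log2 signal of the 5 measured markers of microglia and macrophages (x axis), 1 point per array, with colour for genotype and shape for age. The 12 P347S arrays lie at marker means of 5.45 to 6.23 and the 12 normal arrays at 4.96 to 5.25, and 11 of the 12 P347S arrays lie above every normal array in Lgals9.

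The other galectins with paired domains did not pass by genotype. Lgals4 encodes galectin-4, known from the gut, and some mouse strains carry a near-identical copy, Lgals6, whose transcripts its probes might also read. At 1 month Lgals4 read 7.15 to 7.45 in P347S retinas and 7.01 to 7.42 in normal retinas. At 2 months it read 7.51, 7.33 and 7.67 in P347S retinas, against 7.82, 7.95 and 8.11 in normal retinas, with no overlap. Lower without overlap at that age were 8.35% of all probe sets. At 3 months it read 7.44 to 7.72 in P347S retinas and 7.60 to 7.76 in normal retinas, and at 4 months 7.05 to 7.72 in P347S retinas and 7.59 to 7.70 in normal retinas. The Lgals4 difference was -0.45 ± 0.14 at 2 months (SE, limma adjusted p = 0.0656, from 0.0305 to 0.473 over 33 alternatives) and -0.18 ± 0.07 over the 4 ages (adjusted p = 0.0648, from 0.00413 to 0.139 over 32 alternatives). Lgals4 sat on the threshold: over the 4 ages it passed in 6 of these 32 alternatives, among them quantile normalization applied again (-0.24), and its sign was negative in all 32.

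Lgals8 encodes galectin-8, known for recognising damaged endosomes and lysosomes. Its log2 signal at 1 month was 8.45, 8.40 and 8.50 in P347S retinas and 8.36, 8.24 and 8.20 in normal retinas, higher in all 3 P347S arrays, as were 10.4% of all probe sets. At 2 months the order was the opposite, with 8.38, 8.20 and 8.33 in P347S retinas and 8.48, 8.48 and 8.44 in normal retinas, and 8.35% of all probe sets were lower in this way. At 3 months it read 8.39 to 8.50 in P347S retinas and 8.19 to 8.53 in normal retinas, and at 4 months 8.07 to 8.47 in P347S retinas and 8.35 to 8.51 in normal retinas, with overlap at both ages. Over the 4 ages the difference was -0.01 ± 0.05 (SE, limma adjusted p = 0.927, 95% interval -0.11 to 0.09), and the F test of a change with age did not pass (adjusted p = 0.335). Lgals12, which encodes galectin-12, known from fat cells, lay between 3.87 and 4.23 in P347S arrays and between 3.76 and 4.21 in normal arrays. Its mean of 4.00 was near the 25th percentile of all probe sets (3.83), and its difference over the 4 ages was -0.03 ± 0.05 (SE, limma adjusted p = 0.728, 95% interval -0.14 to 0.08).

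**Figure D3:**
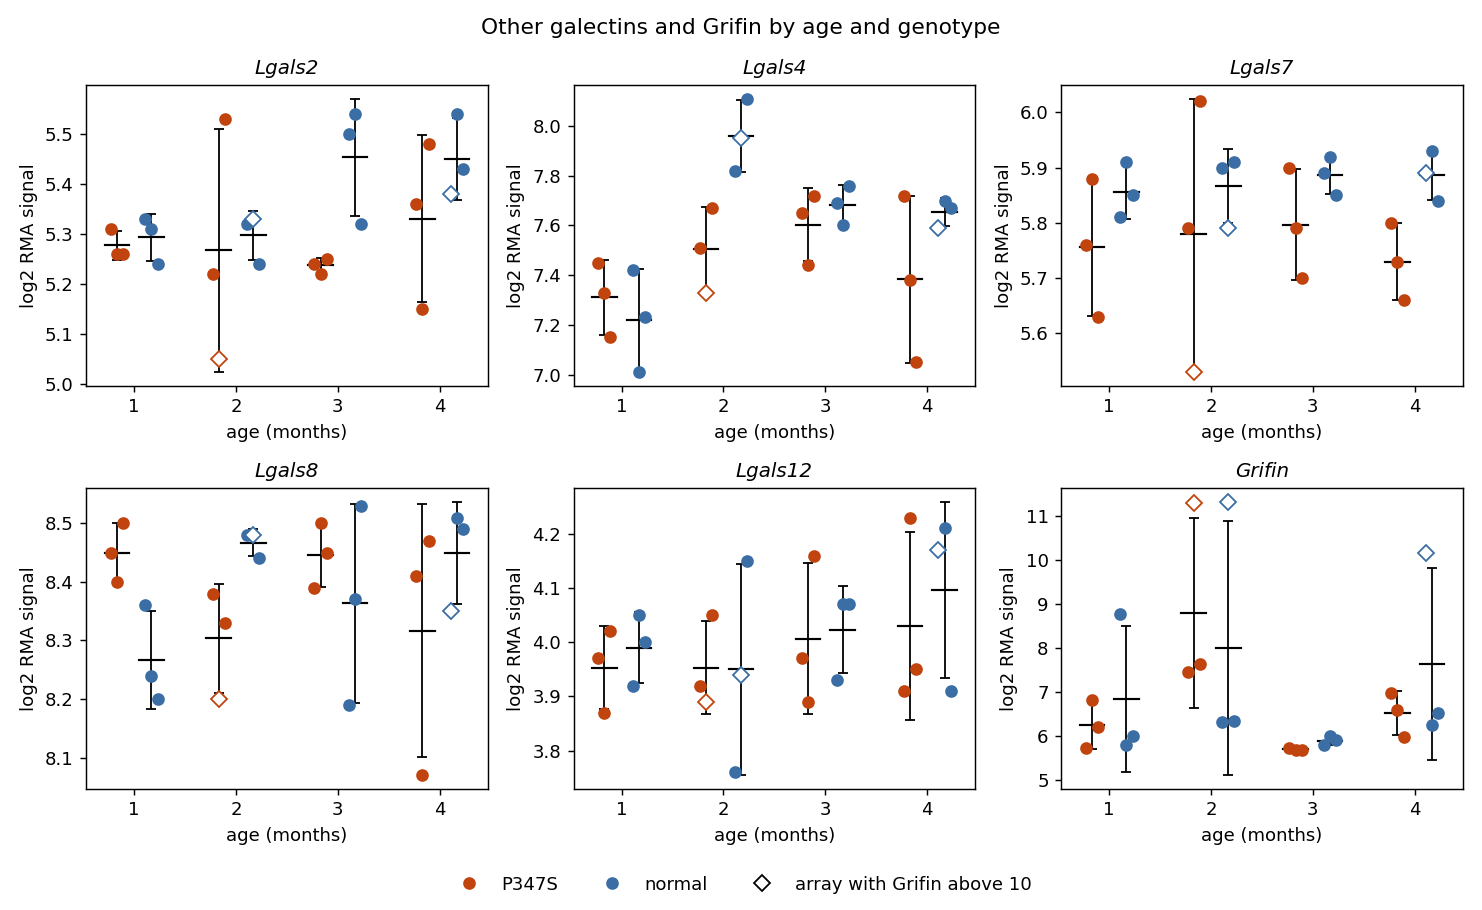
Log2 RMA signal (y axis) of Lgals2, Lgals4, Lgals7, Lgals8, Lgals12 and Grifin by age in months (x axis), P347S left of normal, 1 point per array, with bars for the group mean and SD (n = 3). Open diamonds are the 3 arrays with a Grifin signal above 10, which read 10.16 to 11.33 in the Grifin panel. The y axes differ between panels and do not start at 0.

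Galectin-3, the product of Lgals3, is known from activated macrophages and microglia. At 1 month Lgals3 read 6.37, 6.52 and 6.30 in P347S retinas and 6.36, 6.84 and 7.11 in normal retinas. Values of 2 months were 7.08, 8.06 and 6.79 in P347S retinas and 6.68, 8.44 and 7.45 in normal retinas. In both groups of 2 months replicate 2, an array with high Grifin, was the highest. At 3 months Lgals3 read 7.15, 6.96 and 7.22 in P347S retinas and 6.87, 6.37 and 6.56 in normal retinas, higher without overlap, as were 13.2% of all probe sets. At 4 months it read 6.94, 7.23 and 6.89 in P347S retinas and 7.75, 6.56 and 6.69 in normal retinas. At 4 months all 3 P347S arrays thus lay above 2 of the normal arrays and below the third, which has high Grifin.

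Without the 3 arrays the residual SD of Lgals3 within groups was 0.261, against 0.490 with them, and the differences, in order from 1 month, became -0.38 ± 0.19, -0.13 ± 0.23, 0.51 ± 0.19 and 0.39 ± 0.21 (SE). The 4-month difference had been 0.02 ± 0.36 with them. None passed either way; without them the limma adjusted p was 0.0861 at 3 months and 0.298 at 4 months. The F test of a change of the difference with age gave an adjusted p of 0.661 with all arrays and 0.365 without the 3. Within P347S retinas Lgals3 was 1.54-fold higher at 4 months than at 1 month (0.62 ± 0.36, SE, limma adjusted p = 0.449, from 0.0309 to 0.726 over 33 alternatives). That difference had an adjusted p of 0.0935 without the 3 arrays, and it passed in the 1 alternative that used only the 6 arrays compared. The 3 P347S arrays of 4 months lay above the 3 of 1 month, as did those of 14.1% of all probe sets.

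Galectin-1, the product of Lgals1, is a dimeric galectin of glia and vessels. At 1 month Lgals1 read 8.56, 8.62 and 8.58 in P347S retinas and 8.60, 8.50 and 8.77 in normal retinas. Values of 2 months were 8.91, 9.89 and 9.23 in P347S retinas and 8.33, 9.89 and 9.38 in normal retinas. The spread was thus narrow at 1 month and wide at 2 months, in both genotypes. At 3 months Lgals1 read 8.89, 8.32 and 9.06 in P347S retinas and 8.66, 8.57 and 8.50 in normal retinas. At 4 months it read 9.23, 9.26 and 8.32 in P347S retinas and 9.38, 8.60 and 8.46 in normal retinas. In P347S retinas of 3 and 4 months 2 arrays of each group were well above the third, and the genotypes overlapped at every age. Over the 4 ages the difference was 0.10 ± 0.16 (SE, limma adjusted p = 0.673, 95% interval -0.24 to 0.44), and 0.19 ± 0.13 without the 3 arrays (adjusted p = 0.326).

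**Figure D4:**
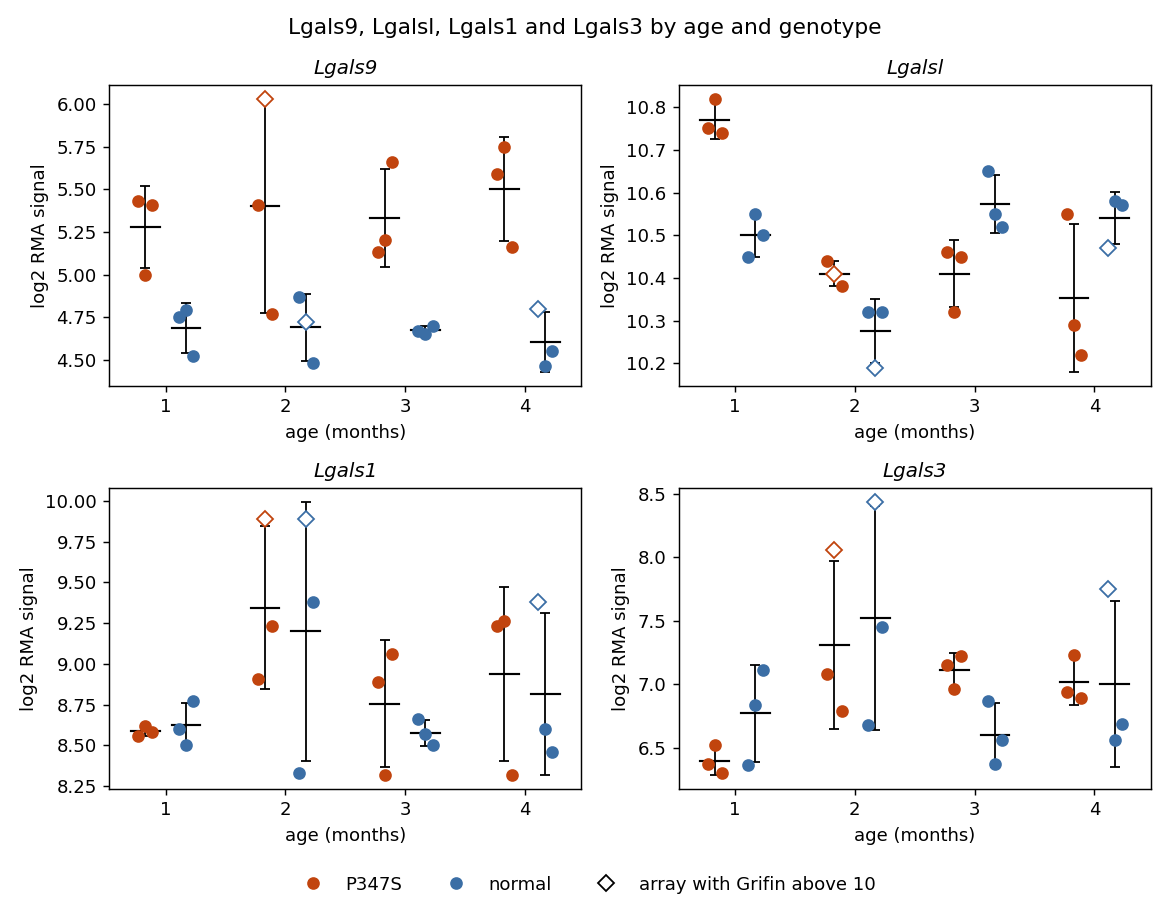
Log2 RMA signal (y axis) of Lgals9, Lgalsl, Lgals1 and Lgals3 by age in months (x axis), P347S left of normal, 1 point per array, with bars for the group mean and SD (n = 3). Open diamonds are the 3 arrays with a Grifin signal above 10. Lgalsl in P347S retinas reads 10.74 to 10.82 at 1 month and 10.22 to 10.55 at 4 months, and the y axes differ between panels and do not start at 0.

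The remaining single-domain galectins varied little. Lgals2 (galectin-2) lay between 5.05 and 5.53 in P347S arrays, with a median of 5.25, and between 5.24 and 5.54 in normal arrays, with a median of 5.33. At 3 months it read 5.24, 5.22 and 5.25 in P347S retinas and 5.50, 5.54 and 5.32 in normal retinas, lower without overlap, as were 19.4% of all probe sets, and the difference was -0.21 ± 0.10 (SE, limma adjusted p = 0.155). Lgals7, which encodes galectin-7, known from stratified epithelia, lay between 5.53 and 6.02 in P347S arrays and between 5.79 and 5.93 in normal arrays. In Lgals7 8 of the 12 P347S arrays thus lay below every normal array and 1 above. Its difference was -0.11 ± 0.05 over the 4 ages (SE, limma adjusted p = 0.106, from 0.0157 to 0.191 over 32 alternatives), and at 4 months the P347S arrays were lower without overlap, as were 12.9% of all probe sets. With quantile normalization applied again Lgals4 and Lgals7 (-0.15, limma adjusted p = 0.0258) were both called lower over the 4 ages, so that 2 of 3 member calls were then lower. Of all probe sets 161 were called higher and 157 lower in that setting.

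Lgalsl was the 1 member called between ages. At 1 month it read 10.75, 10.82 and 10.74 in P347S retinas and 10.45, 10.55 and 10.50 in normal retinas. The 2-month values were 10.44, 10.41 and 10.38 in P347S retinas and 10.32, 10.19 and 10.32 in normal retinas. Both groups of 2 months were lower than those of 1 month, and its P347S arrays were higher without overlap at both ages, as were 10.4% and 9.07% of all probe sets. At 3 months Lgalsl read 10.46, 10.32 and 10.45 in P347S retinas and 10.65, 10.55 and 10.52 in normal retinas, now lower in all 3 P347S arrays, as were 19.4% of all probe sets. At 4 months it read 10.55, 10.29 and 10.22 in P347S retinas and 10.47, 10.58 and 10.57 in normal retinas, where P347S replicate 1 lay among the normal arrays.

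Within P347S retinas Lgalsl fell by 0.42 ± 0.08 on the log2 scale at 4 months relative to 1 month (SE, n = 3 and 3 arrays in a fit to 24, limma adjusted p = 0.00536), a 0.75-fold level. It was the 1 member called in that comparison, where 2.65% of all probe sets were called, 1.12% lower. Of those calls 57.6% were higher, and 45.5% after centring by array medians. The adjusted p was 0.0115 without the 3 arrays, where 2.49% were called, and at most 0.0462 when any 1 array was left out. It was 0.0781, which misses the threshold, when only the 6 arrays compared were fitted (range 0.001 to 0.0781 over 33 alternatives). In normal retinas the same comparison gave 0.04 ± 0.08 (SE, 95% interval -0.12 to 0.20), and 0 probe sets (0.00%) were called there in limma. At an unadjusted p under 0.05, 7.38% of probe sets passed there. Among the members Lgals4 alone did so (0.43 ± 0.14, SE, limma unadjusted p = 0.00515, adjusted p = 0.29).

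The Lgalsl genotype difference, in order from 1 month, was 0.27, 0.13, -0.17 and -0.19, each ± 0.08 (SE), with limma adjusted p of 0.155, 0.459, 0.154 and 0.132. The F test of a change of this difference with age gave an unadjusted p of 0.000768 and an adjusted p of 0.086, so the change of sign was not past the threshold (0.014 to 0.268 over 32 alternatives). Its difference at 4 months minus that at 1 month was -0.45 ± 0.11 (SE, limma adjusted p = 0.0622), and -0.49 ± 0.12 without the 3 arrays (adjusted p = 0.11), a contrast added after the data were seen. The F test called 0.321% of all probe sets, and the added contrast 0.241%. Lgalsl was also a quiet probe set: its residual SD within groups was 0.084, and 8.27% of the 1246 probe sets had one as small or smaller.

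Grifin was the reverse, with the largest residual SD of all 1246 probe sets (1.62, and 0.715 without the 3 arrays). At 1 month it read 5.74, 6.82 and 6.22 in P347S retinas and 8.77, 5.80 and 6.01 in normal retinas. The 2-month values were 7.47, 11.29 and 7.64 in P347S retinas and 6.32, 11.33 and 6.36 in normal retinas. High arrays thus stood beside low ones of the same group, and the same-numbered arrays of 2 months were high in both genotypes. At 3 months Grifin read 5.73, 5.69 and 5.69 in P347S retinas and 5.81, 6.0 and 5.91 in normal retinas. At 4 months it read 6.98, 6.61 and 5.99 in P347S retinas and 10.16, 6.25 and 6.52 in normal retinas. The groups of 3 months were the only ones in which all 6 arrays lay at or below 6.0, and there the P347S arrays were lower without overlap, as were 19.4% of all probe sets. Over the 4 ages the difference was -0.28 ± 0.59 (SE, limma adjusted p = 0.749), with a 95% interval of -1.50 to 0.94 that allows a change of more than a factor of 2 downwards.

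In each of the 3 arrays the other members were set against the mean of the other 2 arrays of its group. Grifin was higher by 3.73 in P347S replicate 2 of 2 months, by 4.99 in normal replicate 2 of 2 months and by 3.78 in normal replicate 1 of 4 months. Lgals3 was higher by 1.13 in that P347S array and by 1.37 and 1.12 in the normal arrays. Lgals1 was higher by 0.81 in the P347S array and by 1.03 and 0.84 in the normal arrays. The Grifin values restate how the 3 arrays were chosen. In order of the smallest of the 3 deviations Lgals3 and Lgals1 ranked 7 and 12 of 1246 probe sets, and 14 probe sets in all were higher by over 0.5 in all 3 arrays. Lgals9 deviated by 0.94 in the P347S array and by 0.04 and 0.30 in the normal arrays, and the other 6 members by -0.38 to 0.11. Over all probe sets 87 were higher and 356 were lower in all 3 arrays, with 0 lower by over 0.5 in all 3; RMA sets the arrays to a like level, so a shift of a whole array cannot be read from these values.

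The 5 named genes outside the family that moved most with Grifin in these arrays, by the same measure, were B3gnt5, Igfbp7, Fgfr3, Wnt7b and Cd44. B3gnt5, which adds N-acetylglucosamine to lactosylceramide, read 7.65 in the P347S array and 8.05 and 7.12 in the normal arrays, against 3.73 to 5.21 in the other 21. Igfbp7, a secreted binding protein of insulin-like growth factors, read 11.22 in the P347S array and 11.67 and 11.58 in the normal arrays, against 7.56 to 8.91. Fgfr3, a receptor of fibroblast growth factors, read 7.17 in the P347S array and 7.73 and 7.06 in the normal arrays, against 4.52 to 5.57. None of these 3 genes overlapped between the 3 arrays and the others. Wnt7b, a Wnt ligand, read 8.51 in the P347S array and 9.26 and 8.63 in the normal arrays, against 6.36 to 7.06. Cd44, the hyaluronan receptor, read 9.23 in the P347S array and 8.69 and 8.19 in the normal arrays, against 6.28 to 8.63, and so overlapped. These values choose the genes, so they are a description without a test.

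**Figure D5:**
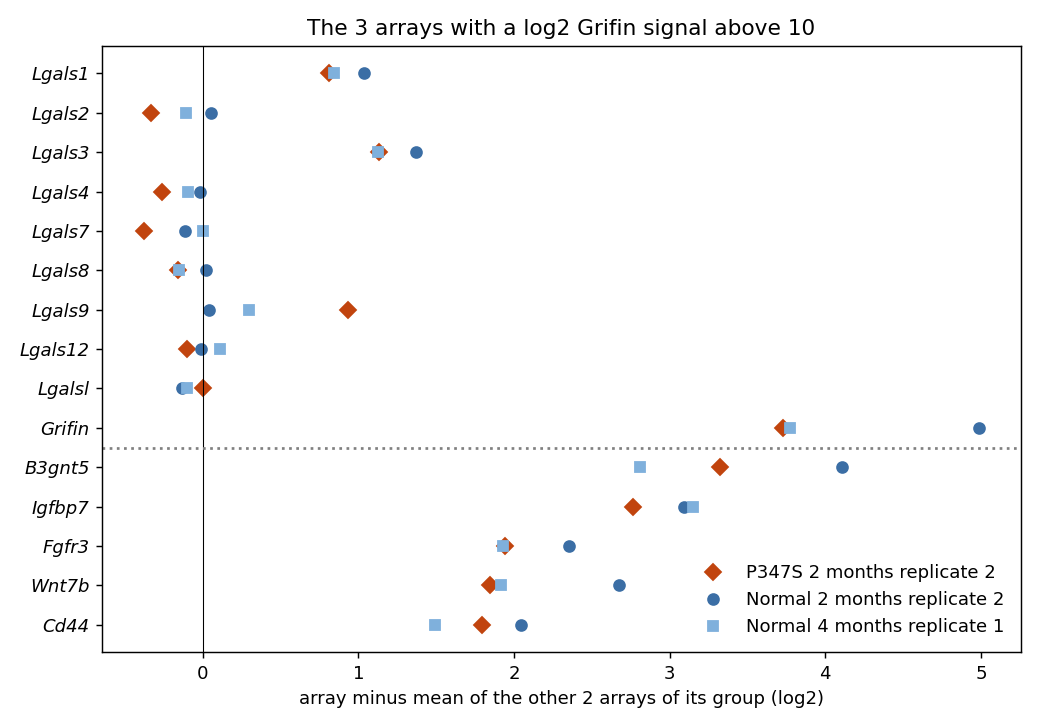
Deviation of each of the 3 arrays with a Grifin signal above 10 from the mean of the other 2 arrays of its group (x axis, log2) for the 10 members and, below the dotted line, the 5 other genes that deviated most in all 3 (y axis). Grifin lies at 3.73 to 4.99, Lgals3 at 1.12 to 1.37 and Lgals1 at 0.81 to 1.03, and the 6 members other than these and Lgals9 lie between -0.38 and 0.11.

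Markers of tissues around the retina were few on the array. Of 24 listed lens markers, crystallins included, 0 were measured, so a lens origin could not be read. Of 11 cornea and conjunctiva markers 2 were measured (Lum and Muc4), with a mean of 3.94 in the P347S array and 4.39 and 3.92 in the normal arrays, against 3.84 to 4.51 in the others. Of 17 markers of pigment epithelium, choroid and connective tissue 4 were measured (Dcn, Lum, Bgn and Fmod), with a mean of 4.78 in the P347S array and 5.77 and 4.85 in the normal arrays, against 4.36 to 6.22 in the others. Both means lay within the range of the others, a range over all groups and not the deviation within a group used above. Fmod read 6.15 in the P347S array and 6.96 and 6.66 in the normal arrays. The others read 5.25 to 7.52 for Fmod, with a median of 5.79. Dcn, Lum and Bgn lay on both sides of their medians in the 3 arrays, and Muc4 below its own. The part of other eye tissues in the Grifin, Lgals1 and Lgals3 values was not tested.

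Glycoproteins that galectins are known or reported to bind formed a list of 54. Of these 18 were on the array, and 10 of the 18 were called higher and 0 lower over the 4 ages, or 9 and 0 without the 3 arrays. The shares of all probe sets were 13.8% called higher and 8.83% lower, and 18.0% either way without the 3 arrays. These shares are over all 1246 probe sets, whereas the 18 genes enter with the probe set of highest mean each. The median difference was 0.27 for the 18, against -0.02 for the 909 named genes. The list was drawn up with earlier results of these data known, so these counts are a description and not a test. Of the 10 called, Cd44, Vcam1 and Icam1 are also among the markers of reactive glia and Cd34 and Mcam among those of endothelium given above, and the part of these cells was not tested. The adhesion molecule Vcam1 lay at 6.79 to 7.77 in P347S arrays (median 7.29) and at 6.02 to 6.77 in normal arrays (median 6.51), and rose by 0.81 ± 0.08 (SE, limma adjusted p = 7.56e-07). Icam1, another adhesion molecule, lay at 4.18 to 6.09 (median 4.83) in P347S arrays and at 3.52 to 4.16 (median 3.94) in normal arrays, and rose by 1.00 ± 0.12 (adjusted p = 3.04e-06). Neither gene overlapped between genotypes over all 24 arrays. Egfr, the EGF receptor, rose by 0.45 ± 0.05 and Tgfbr2, a TGF-beta receptor, by 0.64 ± 0.09, while the second probe set of each differed by less than 0.01 and did not pass (adjusted p = 0.98 and 0.954).

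Havcr2, which encodes the galectin-9 receptor TIM-3, lay between 3.81 and 4.59 in P347S arrays (median 3.89) and between 3.52 and 3.86 in normal arrays (median 3.70). It rose by 0.25 ± 0.07 over the 4 ages (SE, limma adjusted p = 0.0142), but its mean signal lay at the 25th percentile of all probe sets (3.83), and without the 3 arrays it did not pass (0.21 ± 0.08, adjusted p = 0.0665). Cd44, which several galectins are reported to bind, rose by 1.01 ± 0.25 (adjusted p = 0.00581), and by 1.16 ± 0.12 without the 3 arrays (adjusted p = 2.30e-06). Lamp1, a lysosomal glycoprotein rich in N-acetyllactosamine, differed by -0.04 ± 0.04 and did not pass (adjusted p = 0.458), whereas Lamp2 rose by 0.29 ± 0.08 (adjusted p = 0.0133). Havcr2, Cd44, Lamp1 and Lamp2 were named for their link to galectins, outside the rule for the list and after their values were seen.

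Enzymes listed for building N-acetyllactosamine chains moved both ways. The list takes in relatives with other products, such as B4galt5, so its counts are not of chain builders alone. Of 28 listed 26 were measured, and 9 rose and 5 fell over the 4 ages, or 9 and 3 without the 3 arrays, with a median of 0.03. Over all probe sets 13.8% were called higher and 8.83% lower, and 18.0% either way without the 3 arrays. B3gnt2, the main polymerase of these chains, lay at 8.11 to 8.64 in P347S arrays (median 8.34) and at 7.52 to 8.09 in normal arrays (median 7.72), and rose by 0.56 ± 0.07 (SE, limma adjusted p = 4.19e-06). B4galt1, a galactosyltransferase that completes N-acetyllactosamine, lay at 8.58 to 9.43 in P347S arrays (median 9.04) and at 9.25 to 9.64 in normal arrays (median 9.39), and fell by 0.36 ± 0.05 (adjusted p = 1.10e-05). B3gnt2 did not overlap between genotypes, while B4galt1 did. B4galt5, which makes lactosylceramide, rose by 0.44 ± 0.06 and Mgat4c, of the family of N-glycan branching enzymes, by 0.28 ± 0.04. Mean signal of Mgat4c was 3.79, below the 25th percentile of all probe sets (3.83), so the size of its rise is uncertain. Mgat5, whose branch carries the longest of these chains, differed by -0.06 ± 0.05 and did not pass (adjusted p = 0.386); it was named for this role, outside the rule.

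Enzymes that cap or alter the same chains split as well. Of 18 listed 17 were measured, with a median of -0.04. Over the 4 ages 4 rose and 3 fell, or 4 and 2 without the 3 arrays. The shares of all probe sets were 13.8% called higher and 8.83% lower, and 18.0% either way without the 3 arrays. The sialyltransferases St3gal4 (0.32 ± 0.07, SE, limma adjusted p = 0.00134) and St3gal6 (0.35 ± 0.08, adjusted p = 0.0017) rose. The sialyltransferase St3gal1 (-0.34 ± 0.07, adjusted p = 0.0015) and the fucosyltransferase Fut7 (-0.21 ± 0.05, adjusted p = 0.0018) fell. St6gal1, whose alpha-2,6 sialic acid is known to block galectin-1 binding, lay at 7.34 to 7.98 in P347S arrays and at 7.23 to 7.83 in normal arrays. It rose by 0.22 ± 0.05 (adjusted p = 0.00485), was not among the first 4 of its list by p and was named for this role.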

How the data were processed

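Retinal RNA of 24 samples in 8 groups of 3 was measured on a focused Affymetrix array, with biotinylated cRNA, per the labels' protocols. The deposited values are the authors' log2 signals, and the submitters' processing notes name RMA; its steps, version, filters and genome build are not given in the sources used here. The scale was checked on the values. Of 1246 probe sets 963 matched 909 genes through the unversioned transcript accession in RefSeq's table, and all were tested.

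Groups came from the titles. In R 4.3.3, limma 3.58.1 (lmFit, eBayes, 8 group means, 16 residual and 4.37 prior degrees of freedom) gave 2-sided tests, with Benjamini-Hochberg adjustment over 1246 probe sets with calls at 0.05. Each SE is that of limma's estimate. The code was tested on simulated data. List genes use the probe set with the highest mean.

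The text names every member, the 4 genes of smallest p in each list, the 5 genes most like Grifin, Lgals1, Lgals3 and Lgals9, the 5 that deviated most with Grifin, and marker genes; others are named as such. For Lgals3, 1 of the 5 is not reported here. The members and lists were chosen with earlier results of these data known. Alternatives were centring by array medians, a further quantile normalization, leaving out dim probe sets (mean under the 25th percentile), an intensity trend, array weights, a replicate block, only the arrays compared, and arrays left out. A Grifin covariate and the 4-minus-1-month difference were added after the data were seen.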

Additional observations from a re-analysis of the deposited data

Results flagged for a closer look

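Lgalsl is listed because its P347S arrays lay on opposite sides of the normal arrays at different ages, without overlap. All 3 P347S arrays were higher at 1 month (difference 0.27) and at 2 months (0.13), and all 3 were lower at 3 months (-0.17). Of all probe sets 10.4%, 9.07% and 19.4% lay that way at these ages. The test of the change over the 4 ages did not pass (limma F test, adjusted p = 0.086).

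Lgals8 is listed for the same reason. All 3 P347S arrays were higher at 1 month (0.18) and all 3 were lower at 2 months (-0.17), as were 10.4% and 8.35% of all probe sets, and the test of the change did not pass (limma F test, adjusted p = 0.335).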

How the results depend on the processing

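Lgals9 over the 4 ages kept its direction and its call under all 32 alternatives. The count of members called over the 4 ages was 1, and it was 3 with quantile normalization again, 3 with array weights, 2 with the replicate block (Lgals4 added, limma adjusted p = 0.0484) and 1 to 4 with 1 array left out (4 without P347S replicate 3 of 2 months, and 2 without P347S replicate 1 of 4 months or normal replicate 2 of 1 month). At 1 month the count was 0, and 1 with arrays centred, 2 with array weights and 1 with only the arrays compared. At 2 months it was 0, and 1 with arrays centred, 1 with quantile normalization, 2 with array weights and 0 to 1 with 1 array left out. At 3 months it was 0, and 1 (Lgals9) with the replicate block (0.0362), without the 3 arrays with high Grifin (0.0289), with only the arrays compared (0.0446) and with Grifin as a covariate (0.0428), and 0 to 1 with 1 array left out. At 4 months it was 1, and 2 with quantile normalization and 0 to 3 with 1 array left out (0 without P347S replicate 2 and 3 without P347S replicate 1 of that age). For the change with age it was 0, and 1 with array weights and 0 to 1 with 1 array left out. The cause of these changes was not tested. Within a genotype the count (1 in P347S and 0 in normal retinas) was the same under each alternative, but the 1 was Lgals3 and not Lgalsl when only the arrays compared were used. No member that was called in either fit changed sign.

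Over all probe sets the count at 1 month was 4, and 10 with arrays centred, 8 with quantile normalization, 7 with dim probe sets left out, 52 with array weights, 7 with the replicate block, 28 with only the arrays compared and 3 to 13 with 1 array left out. At 2 months it was 43, and 68 with array weights, 1 without the 3 arrays, 2 with only the arrays compared and 14 to 62 with 1 array left out. At 3 and 4 months it was 150 and 161, and 40 and 103 with only the arrays compared, with 66 to 168 and 107 to 179 when 1 array was left out. For 4 months against 1 month in P347S retinas it was 33, and 94 with array weights and 9 to 45 with 1 array left out; in normal retinas it was 0, and 1 with an intensity trend, 26 with array weights and 1 with only the arrays compared. For the change with age it was 4, and 51 with array weights, 0 with the replicate block, 0 without the 3 arrays and 0 to 31 with 1 array left out. For the genotype difference over the 4 ages it was 282, and 224 to 344 over the 32 alternatives.

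Same-numbered P347S and normal arrays deviated together at 2 months alone (r = 0.33, 0.66 and 0.25 over probe sets). In the other 9 pairs r lay between -0.03 and 0.08. The r of 0.66 belongs to replicate 2, the array with high Grifin in both groups of 2 months. Deviations within a group cancel out, so the r of that age are not independent of each other. A pattern shared by replicate 2 alone can raise r in the remaining pairs, and its part in them was not tested. Arrays of different numbers were not compared, so pairing by number was not shown. With the replicate block Lgals9 at 2 months had an adjusted p of 0.06 and Lgals4 of 0.0671, neither past the threshold, and the block changed no member's call other than those of Lgals4 and Lgals9 given above. Signal over background is not known for any probe set, which limits genes of low signal most, such as Mgat4c, Havcr2, Lgals12 and Lgals9.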

Other observations

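For 4 members the named genes outside the family with the most similar pattern (5 each, of which 4 are given for Lgals3) were found over the 21 arrays without high Grifin, as Pearson's r of deviations from group means. These are descriptions of arrays that share groups, labelling and normalization. For Lgals9 they were the fucosyltransferase Fut4 (r = 0.77, by 1 of its 3 probe sets), the mucin-like selectin ligand Glycam1 (0.74), Gmppa (0.68), the chemokine Cxcl13 (0.67) and the endothelial adhesion molecule Mcam (0.65). Of these Glycam1, Cxcl13 and Mcam were also called higher in P347S retinas over the 4 ages in limma (adjusted p = 4.19e-06, 0.00693 and 0.000175). Lgals9 itself followed Lgals1 and Lgals3 little (r = 0.07 and -0.05).

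For Lgals1 the genes were Galnt10, which starts O-glycans (r = 0.90), Col9a2, a collagen chain (0.89), Bsg, which encodes basigin (0.89), B4galt1 (0.89) and Mgat1, which starts N-glycan branching (0.88). Galnt10, B4galt1 and Mgat1 were called lower in P347S retinas over the 4 ages in limma (adjusted p = 0.00224, 1.10e-05 and 0.0126), while Lgals1 was not called.

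For Lgals3 the genes given are Smim7 (r = 0.80), the interleukin-2 receptor chain Il2ra (0.79), the galactosyltransferase B4galt2 (0.79) and Hes6 (0.74). Lgals1 and Lgals3 had an r of 0.56 with each other.

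For Grifin they were B3gnt5 (r = 0.81), Galntl6 (0.75), Wnt7b (0.74), the neurotrophin Bdnf (0.66) and Fgf10 (0.64). B3gnt5 and Wnt7b were thus among the nearest both in the 3 arrays set apart by Grifin and in the 21 others. The r over the 21 arrays lean on 1 array, normal replicate 1 of 1 month, and were not computed without it. Grifin read 8.77 there, against 5.80 and 6.01 in the rest of its group, the widest spread left within a group (SD 1.66). In those 21 arrays Grifin had an r of 0.16 with Lgals1 and of -0.43 with Lgals3. Both r lean on the same normal array of 1 month, where Lgals3 was the lowest of its group (6.36, against 6.84 and 7.11).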
